A study of Homo sapiens with 15 samples.

Results

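The mitochondrial ribosomal protein genes were the 78 protein-coding genes of GENCODE v29 whose symbol starts with MRPL (49 genes, large subunit) or MRPS (29 genes, small subunit), out of 58735 genes with a deposited value. The symbol alone chose them, and each was found in the tables by its Ensembl identifier. Mitochondria translate the messages of their own small genome on a separate ribosome, the mitoribosome, whose products are core subunits of the respiratory chain and of ATP synthase. Its proteins are encoded in the nucleus at sites spread over the chromosomes, made in the cytosol and imported, while its ribosomal RNA comes from mitochondrial DNA. Some of them, such as MRPL3 or MRPS16, have counterparts in bacteria, and others, such as MRPL37, MRPS25 or MRPS34, are found only in mitochondrial ribosomes.

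RNA sequencing covered 15 libraries of HEK293T, an established human embryonic kidney line, in 5 groups of 3 wells. With lentiviral Cas9 and a guide RNA, C9orf89-CKO cells had C9orf89 knocked out, MAGI2-CKO cells MAGI2, MLPH-CKO cells MLPH and RHBDD2-CKO cells RHBDD2. Sets of 4 values below follow this order of the clones. Non-target cells, labelled wild type, had received the same vector with a guide that has no target. All groups were selected with puromycin and grown from clones by limiting dilution, and the study asked with them which genes of supporting cells bear on the drug response of cancer cells grown beside them. Each group is 1 clone in 3 wells, so that p-values measure the spread between wells, and the effect of a guide and the history of a clone cannot be told apart. A library held 15517856 to 19489918 fragments on genes (median 17666063). Values were read as FPKM, that is fragments divided by exon length and by library size. Levels of different genes can then be set side by side per length. No label names the unit, and the divisor used for each library is not given in the sources used here.

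The labels were compared with the RNA of the targeted genes and of marker genes. C9orf89 (CARD19 in GENCODE v29) held 6.56 ± 1.04 FPKM in Non-target cells against 4.32 ± 0.0421 in its own knockout (SD, n = 3 wells), and RHBDD2 held 33.5 ± 5.50 against 12.4 ± 1.18 FPKM. RHBDD2 was also low in MAGI2-CKO, at 13.8 ± 2.15 FPKM, and so it marks more than the clone named for it. MAGI2 was below 0.5 FPKM in every library and MLPH is listed at 0 in all 15, so that neither tests its label. Of 5 transcripts known in HEK293 cells, all passed the filter of the test, and 2, 2, 0 and 4 were lower and 1, 1, 2 and 0 higher in the 4 clones than in Non-target by limma (median log2 fold change −0.26, 0.10, 0.23 and −1.66). Summed, they held 75.8 ± 5.05 FPKM in Non-target and 66.2 ± 6.58, 50.4 ± 1.86, 87.7 ± 6.54 and 18.99 ± 0.778 in the clones. NEFL, the most abundant of them over all 15 libraries, fell from 18.8 FPKM in Non-target to 0.984 in RHBDD2-CKO and was at 24.7 in MAGI2-CKO (group means). NEFM, another neurofilament subunit, was at 27.2 ± 9.71 FPKM in Non-target, 1.34 ± 0.482 in RHBDD2-CKO and 0.0274 ± 0.0378 in MAGI2-CKO. Markers of the monocytic cells used elsewhere in the study were nearly absent, with 0 of 7 above the filter and the myeloperoxidase gene MPO listed at 0 throughout. Of 7 mesenchymal markers, COL1A1 and COL3A1 passed it, with group means of 2.43 to 4.75 and 0.129 to 1.29 FPKM.

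The wells numbered 1 stood apart for the mitochondrial ribosomal protein genes in MLPH-CKO and RHBDD2-CKO. After the mean of each group was taken out, the median deviation of the 77 tested members on the log2 scale was 0.12 in MLPH-CKO replicate 1 and 0.11 in RHBDD2-CKO replicate 1, and it lay between −0.07 and 0.04 in the other 13 libraries. The difference of replicate 1 from the mean of replicates 2 and 3 was also averaged over the 5 groups for each member. Its median was 0.11 in the 39 tested members with the shorter coding sequences (up to 666 bases) and 0.02 in the 38 longer ones. This average does not show the single groups. The counts of members called against Non-target and of the other gene lists are therefore given below with and without these wells.

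The members were expressed at unequal levels. Over the 15 libraries the highest was MRPS34, a small-subunit protein particular to mitochondria, at 198 FPKM. MRPL37 followed at 125, MRPS26 at 112, MRPL51 at 79.1 and MRPL41 at 74.9 FPKM. The median member was at 24.3 FPKM, with 25.8 for the MRPL and 20.2 for the MRPS genes, and the 10th and 90th percentiles lay at 7.21 and 63.2 FPKM, 8.77-fold apart. A mean above 10 FPKM was found for 64 members, and 6 were under 5 FPKM. The 10 most abundant members made up 36.6% of the summed FPKM. Across groups each member held its level more closely than members differed among themselves. The highest group mean exceeded the lowest by 1.34-fold in the median member and by 1.90-fold at most, in MRPL32.

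**Figure D1:**
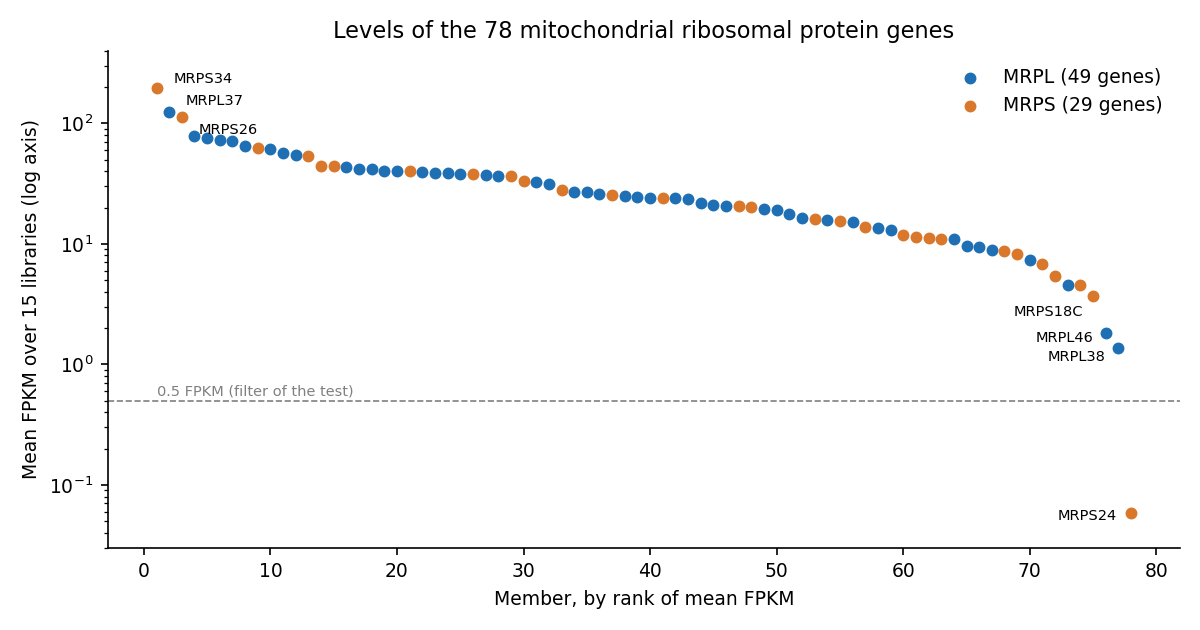
Mean FPKM over 15 libraries (log axis) of each of the 78 members, ranked, with MRPL genes in blue and MRPS genes in orange. Most members lie between 10 and 100 FPKM, MRPS34 leads at 198 FPKM, and MRPS24 alone lies under the dashed line at 0.5 FPKM, the filter of the test.

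The ranked levels of all members show a short tail at the low end, and the lowest of them share their exons with other annotated genes. MRPS24 (ENSG00000062582, chr7:43866558-43869893, minus strand), the relative of a core small-subunit protein, was at 0.0581 FPKM on 0 to 6 fragments per library and was not tested. Of its coding bases 92.2% are also annotated to URGCP-MRPS24, a readthrough gene. MRPL38 was at 1.36 FPKM with 94.1% of its coding bases shared with AC087289.3, and MRPS17 at 4.51 FPKM with 100% shared with AC092647.5. These overlapping genes had mean values of 0.0517, 0.0390 and 0.0762 FPKM. The 6 members with at least 90% of coding bases shared had a median of 4.53 FPKM, against 25.1 for the other 72. How the deposited values treated fragments from shared bases and whether it used strand is not given in the sources used here, so the levels of these members are uncertain. The same holds for 34 members with annotated pseudogenes of the same name (75 pseudogenes), MRPL20, MRPL3, MRPS15 and MRPS16 among them. MRPL12, with 96.0% of its coding bases shared with AC139530.2, was nevertheless at 54.6 FPKM. MRPL46 at 1.81 FPKM and MRPS18C at 3.71 FPKM shared 64.0% and 45.1% of coding bases. MRPL46 and MRPS11 (8.76 FPKM) start 33 bases apart on opposite strands of chromosome 15.

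Summed over the 49 MRPL genes, the 3 Non-target libraries held 1747, 1855 and 1726 FPKM. The C9orf89-CKO libraries held 1532, 1525 and 1524 FPKM, the MAGI2-CKO libraries 1689, 1572 and 1654, the MLPH-CKO libraries 1779, 1510.4 and 1546, and the RHBDD2-CKO libraries 1624, 1427 and 1418. Except for MLPH-CKO replicate 1, which lay among the Non-target values, every clone library lay below every Non-target library. The 29 MRPS genes of Non-target cells summed to 1018 ± 67.3 FPKM (SD, n = 3). Those of the 4 clones summed to 828 ± 30.9, 912 ± 32.6, 902 ± 37.9 and 880.3 ± 23.8 FPKM, and their 12 clone libraries lay below the 3 Non-target libraries. The ratio of the large to the small subunit sum was 1.75 ± 0.0715 in Non-target and 1.85 ± 0.0745, 1.80 ± 0.0773, 1.78 ± 0.0892 and 1.69 ± 0.105 in the clones. These ranges overlap. Taken as a share of all FPKM in a library, the MRPS sum was 0.335%, 0.388% and 0.372% in Non-target. It overlapped these values in MAGI2-CKO (0.307%, 0.327% and 0.337%) and in RHBDD2-CKO (0.341%, 0.361% and 0.350%), and lay below them in C9orf89-CKO (0.286%, 0.318% and 0.326%) and MLPH-CKO (0.320%, 0.315% and 0.329%). The MRPL share was 0.612%, 0.661% and 0.635% in Non-target, and RHBDD2-CKO replicate 1, at 0.617%, was the 1 clone library that reached them. A sum is carried by its most abundant genes, and in bulk RNA fewer expressing cells and less RNA per cell cannot be told apart.

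**Figure D2:**
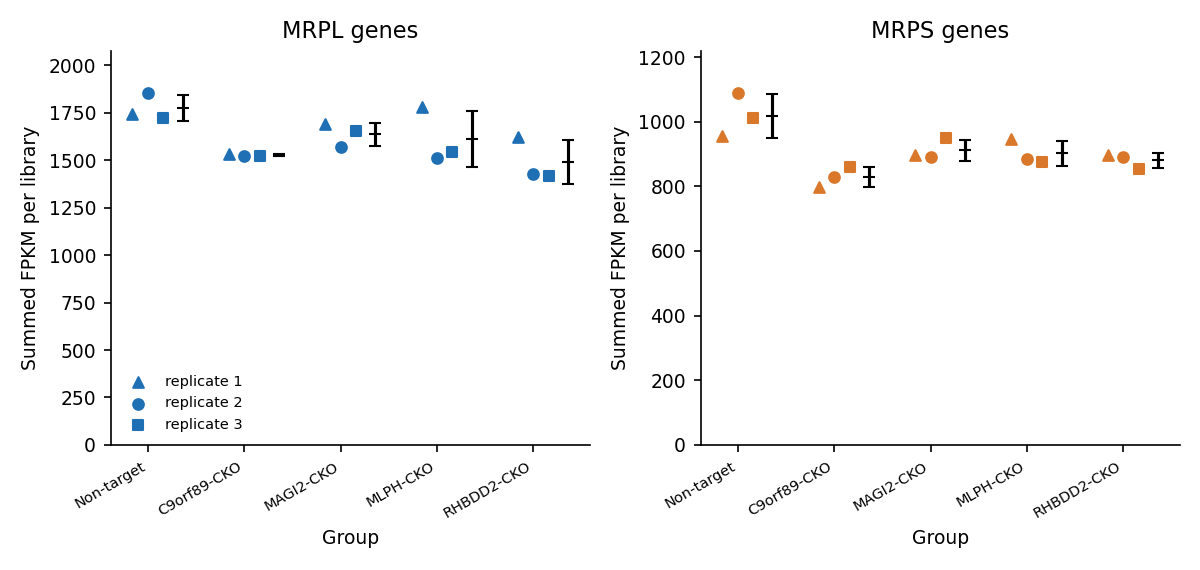
Summed FPKM of the 49 MRPL genes (left) and the 29 MRPS genes (right) in each library, by group, with replicates 1, 2 and 3 as triangle, circle and square and the mean ± SD of 3 wells in black. The MRPS sums of all 12 clone libraries lie below the Non-target sums, and among the MRPL sums only MLPH-CKO replicate 1 reaches them.

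Each clone was compared with Non-target gene by gene, and more members were lower than higher in each. Of 77 tested members, 18 were lower and 6 higher in C9orf89-CKO, where 13.1% of all 16175 tested genes were lower, 12.9% higher and 26% either. MAGI2-CKO had 19 lower and 5 higher members (all genes 19.1% and 17%, either 36.1%). MLPH-CKO had 16 and 5 (all genes 15.5% and 14.5%, either 30.1%), and RHBDD2-CKO 22 and 2 (all genes 16.7% and 17.4%, either 34.1%). The test was limma on log2(FPKM + 0.1), with Benjamini-Hochberg adjustment over all tested genes and a threshold of 0.05. All 4 comparisons share their 3 Non-target wells, so they are not independent of each other. Because 0.1 is added to each value, changes of genes with few fragments come out too small. The median log2 fold change of the members was −0.18, −0.15, −0.15 and −0.16 in the 4 clones, beside −0.00, −0.00, −0.01 and 0.00 over all tested genes. As shares of the 77 members, 23.4%, 24.7%, 20.8% and 28.6% were lower, and 7.79%, 6.49%, 6.49% and 2.60% were higher.

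Members of both subunits were among those called. Of the 49 MRPL genes, 11, 9, 10 and 16 were lower in the 4 clones and 4, 3, 4 and 1 higher, with medians of −0.18, −0.14, −0.14 and −0.21 on the log2 scale. The lower ones were 22.4%, 18.4%, 20.4% and 32.7% of them, beside 13.1%, 19.1%, 15.5% and 16.7% of all genes. In MAGI2-CKO the MRPL share was thus not above that of all genes. Of the 28 tested MRPS genes, 7, 10, 6 and 6 were lower and 2, 2, 1 and 1 higher, with medians of −0.18, −0.19, −0.17 and −0.14. Lower were thus 25%, 35.7%, 21.4% and 21.4% of the tested MRPS genes. MRPS30 and MRPS18A are known to sit in the large subunit in spite of their symbols. With these moved, the large subunit had 11, 10, 10 and 16 of 51 lower and the small one 7, 9, 6 and 6 of 26. No test of the difference between subunits was made. Members whose 3 clone libraries all lay below the 3 Non-target libraries numbered 33, 32, 24 and 26, and 8, 7, 5 and 4 lay above (20.4%, 24.4%, 21% and 21.5% of all tested genes lay below, and 19.4%, 22.4%, 20.1% and 22.7% above).

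The size of these counts depended on the libraries and on the scaling. Without replicate 1 of every group, 34, 31, 44 and 43 members were lower and 7, 8, 3 and 3 higher in the 4 clones, while 17.2%, 21.7%, 20.3% and 22.2% of all genes were lower. The lower members were then 21, 18, 28 and 29 MRPL and 13, 13, 16 and 14 MRPS genes. Leaving out C9orf89-CKO replicate 2 kept 15 of the 24 calls in that clone and added none (16.9% of members and 10.7% of all genes lower). In MAGI2-CKO the 19 lower members became 11 without Non-target replicate 2 and 12 without MAGI2-CKO replicate 2. These are 14.3% and 15.6% of the members beside 16.4% and 15.8% of all genes, so that the lower share of the members was not above that of all genes when either well was left out. In MLPH-CKO the 16 became 26 without MLPH-CKO replicate 1 (33.8%, all genes 15.2%). They became 11 without Non-target replicate 2 (14.3%, all genes 13.1%). Without MLPH-CKO replicate 2 or 3 they became 12 (15.6% in both, all genes 12.4% and 12.3%). In RHBDD2-CKO the 22 became 13 without Non-target replicate 2 and 13 without RHBDD2-CKO replicate 3 (16.9% in both, all genes 12.8% and 13.4%).

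Scaling mattered as well. Rescaling each library to the same summed FPKM shifted the median of all genes in RHBDD2-CKO to 0.15. There 9 members were then lower (11.7%, all genes 9.68%) and 6 higher (7.79%, all genes 26.9%), with a median of −0.00, 0.15 below that of all genes. With the same sums the lower and higher members of MLPH-CKO were 19 and 3 (24.7% and 3.90%, all genes 14.7% and 12.7%). With quantile normalization 15, 15, 11 and 11 members were lower and 6, 8, 6 and 4 higher in the 4 clones. The lower ones were 19.5%, 19.5%, 14.3% and 14.3% of the members beside 12.3%, 19.2%, 15.2% and 15.3% of all genes, which puts C9orf89-CKO above all genes, MAGI2-CKO level with them and the others slightly below. The medians of the members were then −0.12, −0.11, −0.12 and −0.10, beside 0.00, −0.01, −0.01 and 0.02 over all genes. In RHBDD2-CKO the 16 lower MRPL genes became 7 (14.3%) with quantile normalization and 6 (12.2%) with the same summed FPKM. The 6 lower MRPS genes there became 4 (14.3%) and 3 (10.7%). In MAGI2-CKO the 9 lower MRPL genes became 6 (12.2%) and 13 (26.5%), where 19.2% and 18.4% of all genes were lower.

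**Figure D3:**
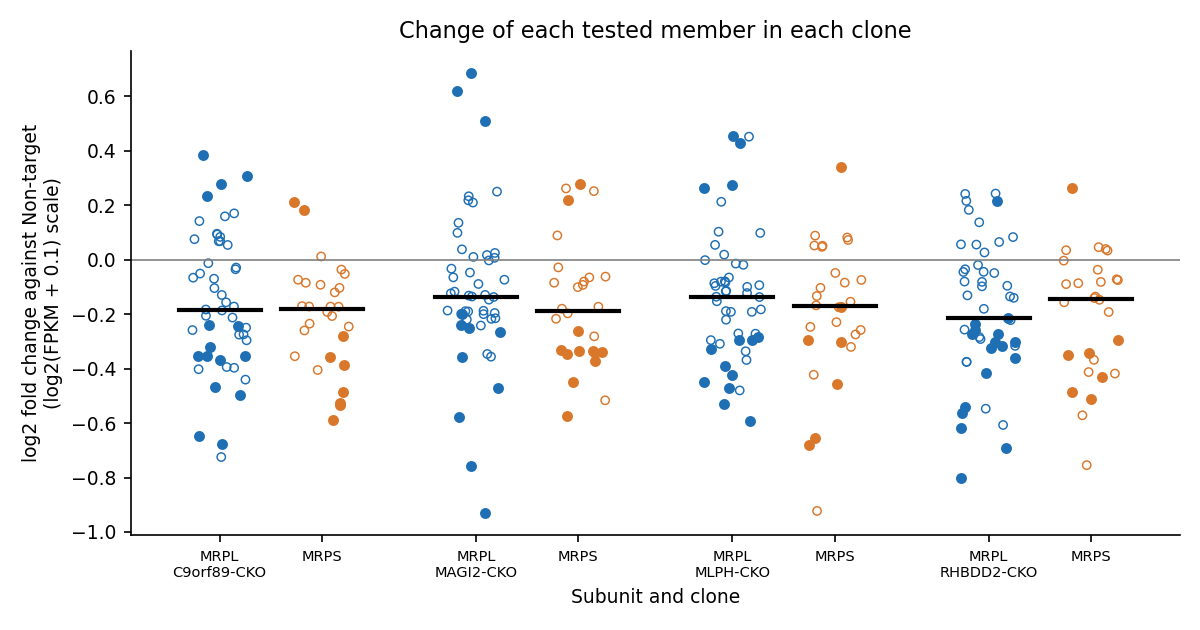
The log2 fold change against Non-target (log2(FPKM + 0.1) scale) of each tested member in each clone, with 49 MRPL genes in blue and 28 MRPS genes in orange. Filled points passed an adjusted p of 0.05, black bars are medians, and all 8 medians lie below 0. With libraries rescaled to the same summed FPKM the median of all 77 members in RHBDD2-CKO was −0.00.

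The log2 fold changes of 36, 38, 40 and 36 of the 77 members lay within 0.2 of 0 in the 4 clones, and those of 6, 8, 5 and 10 lay at 0.5 or more from 0. Among the large-subunit genes, MRPL20 (ENSG00000242485, chr1:1401908-1407313, minus strand), a core protein with a bacterial counterpart, was higher in each clone. It was at 29.2, 29.9 and 27.3 FPKM in the Non-target wells, 38.2, 36.98 and 37.5 in the C9orf89-CKO wells, 47.2, 44.4 and 47.5 in the MAGI2-CKO wells, 43.5, 36.8 and 36.3 in the MLPH-CKO wells, and 36.5, 31.9 and 32.1 in the RHBDD2-CKO wells. The log2 fold changes were 0.38, 0.69, 0.43 and 0.22 in the 4 clones (standard error 0.08, limma adjusted p = 0.00247, 1.76e-05, 0.000974 and 0.0415). All 12 clone libraries lay above the 3 Non-target libraries, and MAGI2-CKO lay highest. In RHBDD2-CKO, the call of MRPL20 was lost when any single one of Non-target replicates 1, 2 and 3, C9orf89-CKO replicates 2 and 3, MAGI2-CKO replicates 2 and 3 and RHBDD2-CKO replicates 1 and 3 was left out (adjusted p = 0.0503 to 0.150). It was the 1 member that passed the threshold upward in each comparison, as 3.39% of all tested genes did.

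Downward in each comparison passed MRPL37, MRPS15 and MRPS25 (3.26% of all tested genes did). MRPL37 (ENSG00000116221, chr1:54184041-54225464, plus strand) encodes a large-subunit protein particular to mitochondria. It was at 142, 156 and 148 FPKM in the Non-target wells, 110.3, 115 and 119.6 in the C9orf89-CKO wells, 121, 119 and 131 in the MAGI2-CKO wells, 119, 117 and 119 in the MLPH-CKO wells, and 125, 117 and 115 in the RHBDD2-CKO wells. The log2 fold changes of MRPL37 were −0.37, −0.27, −0.33 and −0.32 (standard error 0.06, limma adjusted p = 0.000748, 0.00433, 0.00139 and 0.00138). No clone library reached the lowest Non-target library, and the 12 clone libraries lay between 110.3 and 131 FPKM. The RHBDD2-CKO call was lost with quantile normalization and with the same summed FPKM, at adjusted p-values of 0.146 and 0.0806.

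MRPL12 (ENSG00000262814, chr17:81703357-81707526, plus strand), the protein of the flexible stalk that receives translation factors, set the clones apart. It was at 67.8, 74.5 and 65.97 FPKM in the Non-target wells, 44.7, 41.9 and 43.4 in the C9orf89-CKO wells, 64.4, 58.4 and 68.3 in the MAGI2-CKO wells, 51.04, 56.6 and 62.2 in the MLPH-CKO wells, and 39.4, 41.3 and 38.6 in the RHBDD2-CKO wells. It fell in C9orf89-CKO (log2 fold change −0.68, standard error 0.08, limma adjusted p = 5.26e-05) and RHBDD2-CKO (−0.80, 9.83e-06), with no overlap between their libraries and those of Non-target. MAGI2-CKO overlapped Non-target (−0.12, adjusted p = 0.254), and the difference between MAGI2-CKO and C9orf89-CKO was 0.55 (limma adjusted p = 0.000292). In MLPH-CKO the change was −0.30 (adjusted p = 0.0134). For MRPL12 the MLPH-CKO call depended on each of Non-target replicate 2 and MLPH-CKO replicate 1 (adjusted p = 0.0517 to 0.0573 with that library left out). Quantile normalization, only the 6 libraries compared and leaving out replicate 1 of every group each ended that call too (limma adjusted p = 0.0712 to 0.0847). Its neighbours on chromosome 17 did not fall with it, the median log2 fold change of the 100 nearest tested genes being 0.04 in C9orf89-CKO and 0.02 in RHBDD2-CKO.

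MRPL10, the base of the same stalk, was higher in 3 clones. It was at 19.5, 23.5 and 24.4 FPKM in the Non-target wells, 24.8, 29.7 and 28.9 in the C9orf89-CKO wells, 29.8, 32.4 and 33.4 in the MAGI2-CKO wells, 28.5, 27.2 and 25.3 in the MLPH-CKO wells, and 23.9, 25.6 and 26.7 in the RHBDD2-CKO wells. The gene rose in MAGI2-CKO (log2 fold change 0.51, standard error 0.09, limma adjusted p = 0.000946), where every library lay above Non-target. In C9orf89-CKO (0.31, limma adjusted p = 0.0278) and MLPH-CKO (0.27, adjusted p = 0.0431) it also passed, and there too every library lay above Non-target. MRPL10 lost its C9orf89-CKO call when Non-target replicate 1 and C9orf89-CKO replicates 2 and 3 were left out in turn (adjusted p = 0.0891 to 0.105). Without any single library among Non-target replicates 1 and 2, C9orf89-CKO replicate 3, MAGI2-CKO replicates 2 and 3, MLPH-CKO replicates 1 and 2 and RHBDD2-CKO replicates 2 and 3, the MLPH-CKO call of MRPL10 was lost (adjusted p = 0.0510 to 0.168). Leaving out replicate 1 of every group, no filter, the same summed FPKM, no trend and only the 6 libraries compared each ended it too (limma adjusted p = 0.0588 to 0.112). The neighbours of MRPL10 on chromosome 17 lay above 0 as well, with medians of 0.23, 0.31, 0.25 and 0.18 in the 4 clones. Those of MRPL12 were at 0.20 in MAGI2-CKO.

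MRPL13 (ENSG00000172172, chr8:120380761-120445402, minus strand), a core large-subunit protein, fell in MAGI2-CKO. It was at 14.9, 14.2 and 13.9 FPKM in the Non-target wells, 13.3, 16.5 and 14.97 in the C9orf89-CKO wells, 8.97, 8.21 and 8.12 in the MAGI2-CKO wells, 15.5, 13.3 and 14.1 in the MLPH-CKO wells, and 15.7, 12.2 and 12.9 in the RHBDD2-CKO wells. The log2 fold change in MAGI2-CKO was −0.76 (standard error 0.10, limma adjusted p = 7.51e-05), and the 3 MAGI2-CKO libraries lay below the other 12. Changes in the other 3 clones were between −0.08 and 0.05 and did not pass. The difference of MAGI2-CKO from C9orf89-CKO was −0.81 and that of MLPH-CKO from MAGI2-CKO 0.76 (limma adjusted p = 8.91e-05 and 0.000161). The 100 nearest tested genes had a median of −0.15 in MAGI2-CKO.

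MRPL34 (ENSG00000130312, chr19:17292609-17306843, plus strand), a small core protein of the large subunit, rose in MAGI2-CKO and MLPH-CKO. It was at 30.4, 41.6 and 35.7 FPKM in the Non-target wells, 41.9, 37.4 and 40.9 in the C9orf89-CKO wells, 51.9, 54.7 and 57.8 in the MAGI2-CKO wells, 50.97, 44.1 and 51.5 in the MLPH-CKO wells, and 28.7, 31.9 and 26.8 in the RHBDD2-CKO wells. The log2 fold changes were 0.62 in MAGI2-CKO and 0.45 in MLPH-CKO (standard error 0.11, limma adjusted p = 0.000613 and 0.00653). RHBDD2-CKO overlapped Non-target, at −0.29 (adjusted p = 0.0519), and its difference was −0.91 from MAGI2-CKO and −0.74 from MLPH-CKO (limma adjusted p = 2.15e-05 and 0.000147). The MLPH-CKO call was lost without replicate 1 of every group (adjusted p = 0.0701) and with only the 6 libraries compared (limma adjusted p = 0.0574). Its neighbours were at 0.00 in MAGI2-CKO and 0.08 in MLPH-CKO.

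MRPL3 (ENSG00000114686, chr3:131462212-131502983, minus strand), a core protein of the large subunit, fell in RHBDD2-CKO. It was at 86.9, 82.5 and 84.04 FPKM in the Non-target wells, 70.6, 73.9 and 70.2 in the C9orf89-CKO wells, 78.2, 69.4 and 67.4 in the MAGI2-CKO wells, 82.2, 72.9 and 73.1 in the MLPH-CKO wells, and 58.7, 49.2 and 49.3 in the RHBDD2-CKO wells. In RHBDD2-CKO the log2 fold change was −0.69 (standard error 0.08, limma adjusted p = 3.54e-05) and its libraries lay below all 12 others. In C9orf89-CKO and MAGI2-CKO the value was −0.24 in both (limma adjusted p = 0.0445 and 0.0342). In C9orf89-CKO, the call of MRPL3 was lost when any single one of Non-target replicates 1, 2 and 3, C9orf89-CKO replicates 1, 2 and 3, MAGI2-CKO replicate 2, MLPH-CKO replicates 2 and 3 and RHBDD2-CKO replicate 3 was left out (adjusted p = 0.0503 to 0.112). For MRPL3 the MAGI2-CKO call depended on each of Non-target replicates 1, 2 and 3 and MAGI2-CKO replicates 2 and 3 (adjusted p = 0.0563 to 0.124 with that library left out).

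The plot of 6 members by library shows each well, with no clone library of MRPL20 or MRPS25 among the Non-target ones. MRPL41, particular to mitochondria, lay at 90.98, 98.5 and 85.3 FPKM in Non-target, 64.2, 51.3 and 60.2 in C9orf89-CKO and 71.3, 58.3 and 69.02 in MAGI2-CKO, with log2 fold changes of −0.65 and −0.47 (limma adjusted p = 0.00145 and 0.00738). Neither clone overlapped Non-target. In RHBDD2-CKO it was at −0.36 (adjusted p = 0.0319). MRPL41 lost its RHBDD2-CKO call when Non-target replicates 1 and 2 and RHBDD2-CKO replicates 2 and 3 were left out in turn (adjusted p = 0.0612 to 0.119). MRPL18, a core protein, fell from 72.4 ± 3.50 FPKM in Non-target to 48.4 ± 1.52 in MAGI2-CKO (SD, n = 3, log2 fold change −0.58, limma adjusted p = 3.25e-05), again without overlap. Its smaller values in C9orf89-CKO (−0.24) and RHBDD2-CKO (−0.21) had adjusted p-values of 0.0202 and 0.0294. Without any single library among Non-target replicate 2 and C9orf89-CKO replicate 1, the C9orf89-CKO call of MRPL18 was lost (adjusted p = 0.0738 to 0.0809). In RHBDD2-CKO, the call of MRPL18 was lost when any single one of Non-target replicates 2 and 3 and RHBDD2-CKO replicates 2 and 3 was left out (adjusted p = 0.0552 to 0.113). It was also lost with no filter, quantile normalization, the same summed FPKM or only the 6 libraries compared (limma adjusted p = 0.0504 to 0.57). The log2 fold change of MRPL18 there ran from −0.287 to −0.0587 over all settings.

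MRPL49, particular to mitochondria, was at 31.3, 34.4 and 32.7 FPKM in Non-target, 36.5, 41.5 and 37.8 in C9orf89-CKO and 26.5, 23.9 and 22.9 in MLPH-CKO. It fell in MLPH-CKO (log2 fold change −0.43, limma adjusted p = 0.000695) and was 0.23 in C9orf89-CKO (adjusted p = 0.0295), and MLPH-CKO differed from C9orf89-CKO by −0.66 (adjusted p = 7.61e-05). For MRPL49 the C9orf89-CKO call depended on each of Non-target replicates 1 and 3 and C9orf89-CKO replicates 2 and 3 (adjusted p = 0.0554 to 0.121 with that library left out). MRPL23, which sits near the exit tunnel, was −0.59 in MLPH-CKO (limma adjusted p = 0.0141), from 15.7, 23.7 and 19.8 FPKM to 12.6, 12.6 and 13.4. The MLPH-CKO call of MRPL23 was lost without Non-target replicate 2 (adjusted p = 0.0634). MRPL52 fell in RHBDD2-CKO by 0.62 (limma adjusted p = 0.0108), from 25.9, 25.9 and 22.7 to 20.5, 14.3 and 14.2 FPKM. MRPL43 was higher in C9orf89-CKO (0.28, limma adjusted p = 0.0292) and MLPH-CKO (0.26, adjusted p = 0.0343), and the difference of RHBDD2-CKO from C9orf89-CKO was −0.50 (adjusted p = 0.000674), its libraries reading 18.3, 17.2 and 16.9 against 22.99, 25.8 and 25.5 FPKM. Without any single library among Non-target replicate 1 and C9orf89-CKO replicates 2 and 3, the C9orf89-CKO call of MRPL43 was lost (adjusted p = 0.0890 to 0.102). In MLPH-CKO, the call of MRPL43 was lost when any single one of Non-target replicate 1 and MLPH-CKO replicates 1 and 2 was left out (adjusted p = 0.0670 to 0.133). Leaving out replicate 1 of every group, no filter, the same summed FPKM and only the 6 libraries compared each ended it too (limma adjusted p = 0.0571 to 0.117).

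Of the small-subunit genes, MRPS25 and MRPS15 were lower in each clone. MRPS25 (ENSG00000131368, chr3:15042460-15065335, minus strand) encodes a protein particular to mitochondria. It was at 15.6, 14.9 and 14.1 FPKM in the Non-target wells, 10.9, 9.58 and 10.4 in the C9orf89-CKO wells, 11.7, 11.4 and 11.2 in the MAGI2-CKO wells, 10.01, 8.96 and 9.20 in the MLPH-CKO wells, and 11.1, 10.99 and 9.67 in the RHBDD2-CKO wells. The log2 fold changes were −0.53, −0.37, −0.65 and −0.48 (standard error 0.07, limma adjusted p = 0.000166, 0.00126, 2.30e-05 and 0.000223). The highest clone library, in MAGI2-CKO, lay below the lowest Non-target library. MRPS15 (ENSG00000116898, chr1:36455718-36464437, minus strand), a core protein with a bacterial counterpart, was at 39.4, 42.8 and 41.04 FPKM in the Non-target wells, 33.05, 29.9 and 31.2 in the C9orf89-CKO wells, 33.4, 30.5 and 33.8 in the MAGI2-CKO wells, 32.8, 28.5 and 28.6 in the MLPH-CKO wells, and 34.6, 27.9 and 29.1 in the RHBDD2-CKO wells. Its values of −0.39, −0.34, −0.46 and −0.43 (standard error 0.09, limma adjusted p = 0.00488, 0.00794, 0.00145 and 0.00185) were again without overlap. Of the named members, MRPS25 and MRPS15 kept all 4 calls in each of 25 alternative settings. Their surroundings differed. The neighbours of MRPS25 were at −0.35, −0.37, −0.32 and −0.22, and those of MRPS15 at −0.01, −0.00, −0.08 and 0.02.

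The most abundant small-subunit genes, MRPS34 and MRPS26, both particular to mitochondria, fell in C9orf89-CKO. MRPS34 was at 208, 269 and 239 FPKM in Non-target and 155, 164 and 174 in C9orf89-CKO (log2 fold change −0.53, limma adjusted p = 0.00138), and MRPS26 at 117, 158 and 139.8 and 82.4, 92.4 and 99.7 FPKM (−0.59, adjusted p = 0.00274). Neither gene overlapped between these groups. MRPS34 also passed in MLPH-CKO (−0.30, limma adjusted p = 0.0307) and RHBDD2-CKO (−0.34, adjusted p = 0.0152). For MRPS34 the MLPH-CKO call depended on each of Non-target replicates 2 and 3 and MLPH-CKO replicates 1, 2 and 3 (adjusted p = 0.0558 to 0.128 with that library left out). No filter, quantile normalization, the same summed FPKM and only the 6 libraries compared each ended it as well (limma adjusted p = 0.0671 to 0.416). Its log2 fold change in MLPH-CKO ran from −0.397 to −0.148 over all settings. MRPS34 lost its RHBDD2-CKO call when Non-target replicate 2 and RHBDD2-CKO replicate 3 were left out in turn (adjusted p = 0.0515 to 0.0723). Quantile normalization, the same summed FPKM and only the 6 libraries compared each ended it too (limma adjusted p = 0.0746 to 0.629). Over all settings its log2 fold change there ran from −0.436 to −0.0879. MRPS26 had −0.33 in MAGI2-CKO, where its libraries overlapped Non-target, and −0.35 in RHBDD2-CKO (limma adjusted p = 0.0434 and 0.0357). Without any single library among Non-target replicates 2 and 3, C9orf89-CKO replicate 2, MAGI2-CKO replicates 1 and 2, MLPH-CKO replicate 1 and RHBDD2-CKO replicates 2 and 3, the MAGI2-CKO call of MRPS26 was lost (adjusted p = 0.0518 to 0.176). In RHBDD2-CKO, the call of MRPS26 was lost when any single one of Non-target replicates 2 and 3 and RHBDD2-CKO replicates 1 and 3 was left out (adjusted p = 0.0900 to 0.153). It was also lost with no filter, quantile normalization, the same summed FPKM or only the 6 libraries compared (limma adjusted p = 0.0683 to 0.392). The log2 fold change of MRPS26 there ran from −0.464 to −0.153 over all settings.

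Of MRPS6, MRPS16 and MRPS10, all with bacterial counterparts, the first fell and the others rose. MRPS6 stood at 6.38, 7.17 and 6.19 FPKM in Non-target, 4.65, 4.76 and 4.92 in MAGI2-CKO and 3.97, 4.07 and 4.12 in MLPH-CKO, and fell in both (log2 fold change −0.45 and −0.68, limma adjusted p = 0.000253 and 1.32e-05) without overlap. MRPS16 rose in MLPH-CKO, from 51.3, 47.7 and 46.9 FPKM to 63.4, 60.4 and 61.1 (0.34, limma adjusted p = 0.000924), where no library overlapped. It was also higher in C9orf89-CKO (0.18, adjusted p = 0.0396) and MAGI2-CKO (0.22, adjusted p = 0.0122). For MRPS16 the C9orf89-CKO call depended on each of Non-target replicates 2 and 3, C9orf89-CKO replicates 1, 2 and 3, MLPH-CKO replicates 2 and 3 and RHBDD2-CKO replicate 2 (adjusted p = 0.0503 to 0.136 with that library left out). MRPS16 lost its MAGI2-CKO call when Non-target replicate 3 and MAGI2-CKO replicate 1 were left out in turn (adjusted p = 0.0539 to 0.0541). MRPS10 rose in RHBDD2-CKO. Its libraries there held 36.5, 33.1 and 31.1 FPKM against 28.5, 27.5 and 27.8 in Non-target (0.26, standard error 0.07, limma adjusted p = 0.00846), above all 12 other libraries.

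Promoters were read for members that moved in opposite directions. RefSeq windows (GRCh38.p14) from 250 bases before to 50 bases after the start were found for 69 of the 78 members, 85 windows in all. They were not found for MRPL10, MRPL13, MRPL15, MRPL2, MRPL21, MRPL23, MRPL35, MRPS28 and MRPS36. The letters CCGGAAG, the core bound by ETS factors such as GABP, stood on either strand in 38.8% of the member windows, in 16.6% of 14448 windows of tested protein-coding genes and in 10.3% of all 35116 windows. AAGATGG, the core of YY1 elements, stood in 31.8%, 6.97% and 5.84%, and GCGCATG, a part of NRF1 elements, in 8.24%, 6.6% and 4.43%. TCTCGCG, a part of a palindrome of housekeeping promoters, stood in 4.71%, 5.9% and 3.49%. The ETS and YY1 letters can share AAG, and were joined in this way in 0 of the 85 member windows. By subunit the ETS letters were in 36.5% of 52 MRPL and 42.4% of 33 MRPS windows, and the YY1 letters in 32.7% and 30.3%. These motifs were chosen after the values were seen, a match is a description and not a bound site, and no match says only that these letters are not in the window. Shown next are the stretches before the start, up to the first annotated exon, of MRPL20 (higher in each clone, chr1:1407314-1407543, minus strand), MRPS25 (lower in each clone, chr3:15065336-15065565, minus strand), and MRPL3 (chr3:131502984-131503221, minus strand) and MRPS10 (chr6:42217866-42218111, minus strand), which fell and rose in RHBDD2-CKO. They are written 5′ to 3′ with the ETS letters in capitals.
MRPL20: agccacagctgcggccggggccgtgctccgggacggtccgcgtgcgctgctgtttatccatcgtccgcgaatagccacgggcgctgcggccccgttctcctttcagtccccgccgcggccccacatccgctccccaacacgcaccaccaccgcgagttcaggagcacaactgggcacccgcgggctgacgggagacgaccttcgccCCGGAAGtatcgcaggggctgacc
MRPS25: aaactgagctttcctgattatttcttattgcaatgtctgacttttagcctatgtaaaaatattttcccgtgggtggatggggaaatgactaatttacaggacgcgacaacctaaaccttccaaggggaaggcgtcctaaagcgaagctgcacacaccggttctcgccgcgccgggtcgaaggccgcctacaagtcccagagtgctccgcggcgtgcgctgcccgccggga
MRPL3: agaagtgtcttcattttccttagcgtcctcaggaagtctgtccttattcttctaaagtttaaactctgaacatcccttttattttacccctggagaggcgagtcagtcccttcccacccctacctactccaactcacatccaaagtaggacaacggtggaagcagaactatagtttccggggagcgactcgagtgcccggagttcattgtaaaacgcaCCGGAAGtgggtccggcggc
MRPS10: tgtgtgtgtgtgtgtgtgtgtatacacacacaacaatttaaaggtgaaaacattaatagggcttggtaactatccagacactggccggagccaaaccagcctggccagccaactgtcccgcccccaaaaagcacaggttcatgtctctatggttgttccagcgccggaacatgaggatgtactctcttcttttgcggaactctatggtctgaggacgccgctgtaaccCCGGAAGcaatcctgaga
The ETS letters begin 44, 32 and 22 bases before the start in MRPL20, MRPL3 and MRPS10. In MRPL20 they occur once more, 21 bases before the start, where they run into the first exon and past the end of the stretch shown, and the MRPS25 stretch holds none of the motifs searched.

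The MRPS symbols include proteins with other positions. MRPS18A, MRPS18B and MRPS18C are relatives of 1 bacterial protein, the first placed in the large and the others in the small subunit, and MRPS36 is known as a part of the 2-oxoglutarate dehydrogenase complex. None of these 4 passed the threshold in any clone with all wells. Without replicate 1 of every group, MRPS18C passed in MLPH-CKO and RHBDD2-CKO (limma adjusted p = 0.000397 and 0.00368), and MRPS36 and MRPS18B passed in RHBDD2-CKO (0.0106 and 0.0307), each downward. Single libraries decided some of these as well, since MRPS18C passed in MLPH-CKO without MLPH-CKO replicate 1 or RHBDD2-CKO replicate 1 or 2, MRPS36 in RHBDD2-CKO without RHBDD2-CKO replicate 1 or MLPH-CKO replicate 1 or 3, and MRPS18B in MAGI2-CKO without C9orf89-CKO replicate 1 or MLPH-CKO replicate 1 or 3. MRPS18A held 17.3 to 23.6 FPKM over all libraries with log2 fold changes from −0.15 to −0.09. MRPS18C was the widest, with −0.92 in MLPH-CKO (standard error 0.33, limma adjusted p = 0.0531), its libraries reading 3.87, 1.93 and 1.66 FPKM against 5.26, 4.37 and 3.94. All 3 of these lay below Non-target. MRPS18B ranged from −0.20 in MAGI2-CKO to 0.05 in MLPH-CKO, and MRPS36 in RHBDD2-CKO had −0.57 (limma adjusted p = 0.0755). MRPS30, of the large subunit, was lower in MAGI2-CKO (−0.35, limma adjusted p = 0.0171), from 11.6, 12.8 and 12.4 to 9.01, 10.1 and 9.69 FPKM. Without any single library among Non-target replicates 2 and 3 and MAGI2-CKO replicate 1, the MAGI2-CKO call of MRPS30 was lost (adjusted p = 0.0505 to 0.0632).

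Of the members chosen for their level, MRPL51, MRPL38 and MRPL46 did not pass in any clone with all wells, MRPL51 being at −0.55 in RHBDD2-CKO (limma adjusted p = 0.101). Without replicate 1 of every group MRPL51 was lower in the 4 clones (limma adjusted p = 0.00268, 0.0217, 0.00197 and 0.000417), and in RHBDD2-CKO also without RHBDD2-CKO replicate 1 alone. MRPL38 was then higher in MAGI2-CKO and MLPH-CKO (0.0397 and 0.0140) and MRPL46 lower in RHBDD2-CKO (0.0381). Clones were also compared with each other, where the Non-target mean cancels. The calls among the 77 members, higher and lower in the first-named clone, were 7 and 6 between MAGI2-CKO and C9orf89-CKO (of all tested genes, 9.76% higher, 12.7% lower and 22.5% either). They were 4 and 8 between MLPH-CKO and C9orf89-CKO (all genes 6.63%, 7.61% and 14.2%), and 4 and 11 between RHBDD2-CKO and C9orf89-CKO (14.3%, 15% and 29.3%). Between MLPH-CKO and MAGI2-CKO they were 6 and 7 (11.8%, 9.4% and 21.2%), between RHBDD2-CKO and MAGI2-CKO 11 and 14 (21.5%, 20% and 41.6%), and between RHBDD2-CKO and MLPH-CKO 9 and 11 (18.7%, 18.4% and 37%). In shares of the members, these were 16.9%, 15.6%, 19.5%, 16.9%, 32.5% and 25.97%, of which only that between MLPH-CKO and C9orf89-CKO was above the share of all genes with all wells. Without replicate 1 of every group the shares were 36.4%, 28.6%, 41.6%, 32.5%, 53.2% and 37.7% of the members and 31.2%, 19.5%, 34.9%, 25.8%, 45.8% and 39.4% of all genes, and those of the members were above all genes in each pair but the last. The median difference between 2 clones lay between −0.06 and 0.05 on the log2 scale. Any difference among the 5 groups was called for 45 of 77 members (58.4%) by limma's F statistic and for 61% of all genes. Single libraries moved some of these counts. Between MLPH-CKO and C9orf89-CKO, 7 calls were left without C9orf89-CKO replicate 2 or 3. Between RHBDD2-CKO and C9orf89-CKO, 8 were left without C9orf89-CKO replicate 2 and 9 without RHBDD2-CKO replicate 3. Between MLPH-CKO and MAGI2-CKO, 8 were left without MAGI2-CKO replicate 2 or 3, and 7 without MLPH-CKO replicate 2.

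Some members were followed together with the genes around them on the chromosome. Across the 77 members, the log2 fold change of a member and the median of its 100 nearest tested genes had a Pearson correlation of 0.56, 0.68, 0.69 and 0.48 in the 4 clones. Across 16127 tested genes it was 0.24, 0.33, 0.29 and 0.25. These genes were not matched to the members in level or in spread between wells, so the 2 sets of correlations cannot be compared directly. These are correlations across genes, which share libraries and, where they lie close together, neighbours, and they are given as a description. MRPL20 lies near the end of the short arm of chromosome 1, where its neighbours were at 0.41, 0.61, 0.49 and 0.47. AURKAIP1, a small-subunit protein gene at chr1:1373730-1375495 with almost the same neighbours, was at 0.31, 0.64, 0.62 and 0.26. On chromosome 10, the neighbours of MRPS16, MRPL43 and the small-subunit gene CHCHD1 were at −0.07 to 0.01 in RHBDD2-CKO and at 0.27 to 0.42 in the other clones.

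On chromosome 7 of MAGI2-CKO, MRPL32 (ENSG00000106591, chr7:42932200-42948958, plus strand), a protein cut to its mature form by a mitochondrial protease, fell from 14.4 ± 0.721 to 7.57 ± 1.49 FPKM (SD, n = 3). Its log2 fold change was −0.93 (standard error 0.16, limma adjusted p = 0.000582) beside −0.64 in its neighbours, and no MAGI2-CKO library reached Non-target. MRPS17 was at −0.58 (adjusted p = 0.0394) beside −0.66. In MAGI2-CKO, the call of MRPS17 was lost when any single one of Non-target replicates 1, 2 and 3 and MAGI2-CKO replicates 2 and 3 was left out (adjusted p = 0.0670 to 0.141). The assembly genes MALSU1, MRM2 and RCC1L of the same chromosome fell there as well (−0.76, −0.60 and −0.83, neighbours −0.63, −0.67 and −0.50). MRPL32 in C9orf89-CKO (−0.50) and MLPH-CKO (−0.47) had neighbours near 0 (−0.04 and −0.08) and limma adjusted p-values of 0.0365 and 0.0406. For MRPL32 the C9orf89-CKO call depended on each of Non-target replicates 1, 2 and 3 and C9orf89-CKO replicates 2 and 3 (adjusted p = 0.0627 to 0.109 with that library left out). MRPL32 lost its MLPH-CKO call when Non-target replicates 1, 2 and 3, C9orf89-CKO replicates 2 and 3, MAGI2-CKO replicate 3 and MLPH-CKO replicates 2 and 3 were left out in turn (adjusted p = 0.0502 to 0.138). In MLPH-CKO, MRPL1 and MRPS18C on chromosome 4 were at −0.53 and −0.92 (limma adjusted p = 0.0351 and 0.0531) beside neighbours at −0.49 and −0.47. In RHBDD2-CKO, MRPL3 and MRPS22 on chromosome 3 were at −0.69 and −0.51 (limma adjusted p = 3.54e-05 and 0.00759) beside −0.47 in both. MRPL1 and MRPS22 were singled out after their values were seen.

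**Figure D4:**
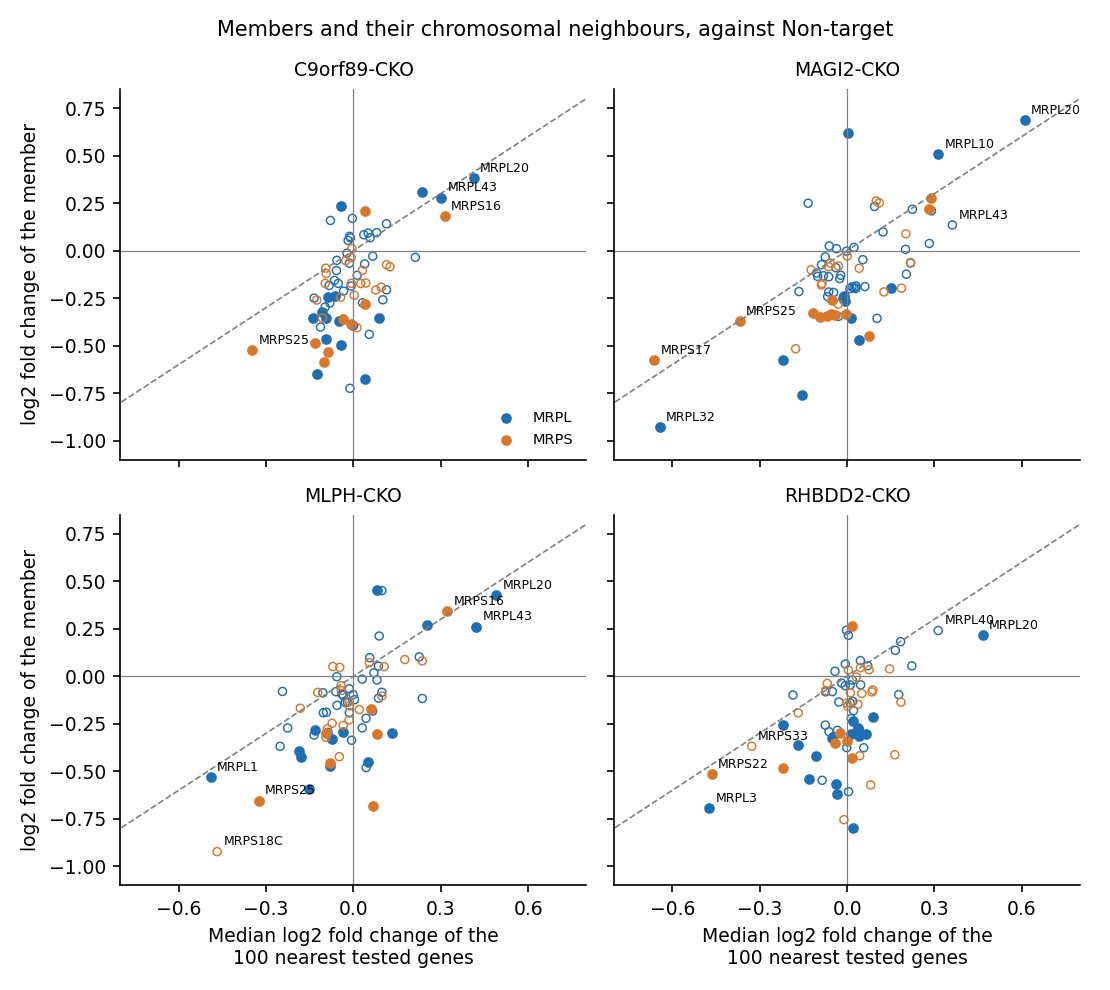
The log2 fold change against Non-target of each of the 77 tested members (vertical) and the median of its 100 nearest tested genes (horizontal) in the 4 clones, MRPL in blue and MRPS in orange, filled where the adjusted p was under 0.05. The dashed line marks equal values, members with neighbours at 0.3 or more from 0 are named, and most of the remaining members lie under the line at neighbours close to 0.

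The members set against their neighbours also show the calls that lie away from such regions. With limits chosen after the values were seen, 57, 46, 52 and 58 members in the 4 clones had neighbours within 0.1 of 0. Of these, 12, 12, 9 and 15 were lower and 2, 1, 1 and 1 higher, with medians of −0.17, −0.19, −0.15 and −0.15. The lower ones were 21.1%, 26.1%, 17.3% and 25.9% of these members, beside 11.4%, 17.2%, 12.7% and 14.8% of all genes with such neighbours, and 9.87%, 12.04%, 10.7% and 15.9% of those genes were higher. Where the neighbours were at 0.2 or above (5, 13, 7 and 3 members), 4, 4, 4 and 1 members were higher, beside 47.2%, 45.4%, 48.96% and 45.6% of all genes there. Where they were at −0.2 or below (1, 4, 6 and 5 members), 1, 4, 2 and 4 were lower, beside 43.7%, 53.5%, 44.6% and 45.5% of all genes there. Relative to its neighbours, the median member was at −0.18, −0.15, −0.13 and −0.17, and 60, 64, 63 and 68 of 77 members lay below their neighbours, beside 50.4%, 50.8%, 50.6% and 49.7% of all genes. Copy number was not measured.

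Other parts of the machinery were followed with lists written by hand. Of the 5 mitoribosome proteins without an MRPL or MRPS symbol, 2, 3, 3 and 1 were higher in the 4 clones and 2, 1, 0 and 2 lower (in MLPH-CKO also 0 at an unadjusted limma p under 0.05). Beside them, 12.9%, 17%, 14.5% and 17.4% of all tested genes were higher and 13.1%, 19.1%, 15.5% and 16.7% lower. DAP3, a GTP-binding protein of the small subunit, fell in C9orf89-CKO from 29.3 ± 1.35 to 20.3 ± 0.808 FPKM (SD, n = 3, log2 fold change −0.53, limma adjusted p = 0.000202). CHCHD1 rose in MAGI2-CKO (0.71, limma adjusted p = 0.000125). Among 27 assembly and rRNA modification factors, 9, 10, 10 and 5 were lower and 1, 3, 1 and 2 higher, with medians of −0.21, −0.18, −0.22 and −0.11. The lower ones made up 33.3%, 37.04%, 37.04% and 18.5% of this list, above the share of all genes in each clone but near it in RHBDD2-CKO. MRM2, which methylates the large ribosomal RNA, was lower in each clone (−0.24, −0.60, −0.22 and −0.20), and so was AFG3L2, a subunit of the protease that matures MRPL32 (−0.24, −0.20, −0.30 and −0.19, limma adjusted p from 0.00122 to 0.0169). YBEY, an RNase, rose in all clones but RHBDD2-CKO (0.79, 1.08 and 0.82, limma adjusted p = 0.00354, 0.000245 and 0.00236).

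Of 17 translation factors and message regulators, 4, 4, 4 and 5 were lower and 0, 2, 2 and 2 higher (in C9orf89-CKO 1 at an unadjusted limma p under 0.05), with medians of −0.10, −0.03, −0.11 and −0.13. Lower were thus 23.5%, 23.5%, 23.5% and 29.4% of this list. The elongation factor gene GFM1 (−0.34, −0.25, −0.30 and −0.35) and C12orf65, which encodes a release factor for stalled ribosomes (−0.57, −0.61, −0.66 and −0.54), were lower in each clone. The 100 nearest tested genes of C12orf65 had medians of −0.35, −0.33, −0.40 and −0.37. Those of GFM1 had medians of 0.01, −0.06, −0.01 and −0.38. SLIRP, a stabilizer of mitochondrial messages, fell in C9orf89-CKO (−0.46) and RHBDD2-CKO (−0.57, limma adjusted p = 0.00581 and 0.00120). Of 18 regulators of mitochondrial transcription and biogenesis 17 were tested, with 3, 3, 3 and 5 higher and 3, 3, 4 and 3 lower and medians of −0.07, −0.04, −0.07 and 0.07. This is 17.6%, 17.6%, 17.6% and 29.4% higher (all genes 12.9%, 17%, 14.5% and 17.4%) and 17.6%, 17.6%, 23.5% and 17.6% lower. The nuclear receptor gene ESRRA was lower in each clone (−0.43, −0.42, −0.38 and −0.41) and the mitochondrial DNA polymerase gene POLG higher in each (0.21, 0.80, 0.31 and 0.39). MYC fell from 70.1 ± 9.56 FPKM in Non-target to 33.9 ± 4.12 in C9orf89-CKO and 37.9 ± 1.01 in MLPH-CKO (−1.05 and −0.88, limma adjusted p = 6.30e-05 and 0.000205), and was 0.25 and 0.21 in MAGI2-CKO and RHBDD2-CKO, which did not pass. GABPA, which encodes the DNA-binding subunit of GABP, was at 0.19 in MAGI2-CKO (limma adjusted p = 0.0775) and higher in the other clones (0.32, 0.24 and 0.43). The part of these regulators in the values of the members was not tested.

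The mitoribosome's own RNA and the messages it reads come from mitochondrial DNA. Of these 15 transcripts, 1, 1, 4 and 0 were higher in the 4 clones and 0 lower by limma (2, 6, 9 and 0 higher and 0 lower at an unadjusted p under 0.05), with medians of 0.16, 0.51, 0.62 and −0.33. The higher ones were 6.67%, 6.67%, 26.7% and 0% of these transcripts, above the share of all genes in MLPH-CKO only. MT-RNR2, the large ribosomal RNA, rose from 598 ± 168 FPKM in Non-target to 1348 ± 191 in MAGI2-CKO (1.20, limma adjusted p = 0.00140). Summed, these transcripts held 31884, 18346 and 18665 FPKM in the Non-target wells, 36062, 20274 and 20469 in the C9orf89-CKO wells and 38808, 26418 and 28668 in the MAGI2-CKO wells, with replicate 1 apart from the others in each of these groups. The MLPH-CKO wells held 31835, 42469.7 and 30323 FPKM and the RHBDD2-CKO wells 19573, 18123 and 17654. These libraries were made from messenger RNA, and how a ribosomal RNA came to be read in them was not tested. Among 83 tested genes of the cytosolic ribosome, 7, 4, 6 and 21 were lower and 5, 11, 7 and 4 higher (medians −0.10, 0.01, −0.06 and −0.29). As shares, 8.43%, 4.82%, 7.23% and 25.3% of these were lower with all wells, above the share of all genes in RHBDD2-CKO and below it in the other clones. Nuclear genes of respiratory complex I were taken by symbol (NDUFA, NDUFB, NDUFC, NDUFS or NDUFV, without NDUFAF). The list thus also holds NDUFA4, NDUFA4L2 and NDUFC2-KCTD14. Of 38 tested genes on it, 8, 5, 5 and 10 were lower and 0, 1, 0 and 0 higher (0, 2, 0 and 0 at an unadjusted limma p under 0.05, medians −0.19, −0.12, −0.12 and −0.28). The lower ones were 21.1%, 13.2%, 13.2% and 26.3% of them with all wells, below the share of all genes in MAGI2-CKO and MLPH-CKO. No test of the difference between these lists and the mitochondrial ribosomal protein genes was made.

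Several of these list counts rose when replicate 1 of every group was left out, where 17.2%, 21.7%, 20.3% and 22.2% of all genes were lower and 15.2%, 18.7%, 16.6% and 19.8% higher in the 4 clones. Of the mitochondrial transcripts 2, 12, 13 and 2 were then higher and 2, 0, 0 and 2 lower. Lower were 25, 8, 36 and 61 genes of the cytosolic ribosome (11, 16, 12 and 6 higher) and 19, 14, 19 and 24 of complex I (0, 4, 0 and 1 higher). The assembly factors had 10, 14, 14 and 9 lower and 2, 3, 1 and 3 higher, and the translation factors 5, 4, 5 and 6 lower and 2, 3, 2 and 3 higher. For the regulators these were 3, 5, 5 and 4 lower and 3, 5, 4 and 6 higher, and for the 5 other mitoribosome proteins 2, 1, 1 and 3 lower and 1, 3, 3 and 0 higher. With all wells and the same summed FPKM, RHBDD2-CKO had 13 genes of the cytosolic ribosome lower, 4 of complex I and 1 assembly factor (15.7%, 10.5% and 3.70%, all genes 9.68%). With quantile normalization these were 8, 6 and 3 (9.64%, 15.8% and 11.1%, all genes 15.3%), so that the cytosolic ribosome was then below all genes in RHBDD2-CKO. Complex I went with quantile normalization from 8 to 5 lower in C9orf89-CKO (13.2%, all genes 12.3%) and from 5 to 3 in MLPH-CKO (7.89%, all genes 15.2%). The assembly factors of C9orf89-CKO went from 9 to 4 lower with the same summed FPKM (14.8%, all genes 9.10%).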

How the data were processed

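RNA of HEK293T cells in 5 groups of 3 wells was sequenced from messenger RNA libraries. The submitters' processing notes name HISAT2 2.0.5, featureCounts 1.5.0-p3 and DESeq2, with no roles. The authors deposited 1 table per library with a value for each of 58735 Ensembl genes, which were read as FPKM. Multiplied by the merged exon length of GENCODE v29, these deposited values were whole multiples of 1 step per library (within 0.05 of a whole number of fragments). This also gave the fragments per library, but it does not show how the step of each library was set. The genome build is not given in the sources used here, and coordinates are those of GENCODE v29 (GRCh38).

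The 16175 genes that reached 0.5 FPKM in 3 or more libraries were fitted with limma 3.58.1 in R 4.3.3 on log2(FPKM + 0.1), 5 groups in 1 model with an intensity trend. P-values were adjusted by Benjamini-Hochberg over all tested genes within a contrast, with a threshold of 0.05. The fit was tested on simulated data. Tables and figures were made in Python 3.11.15 with pandas 2.3.3, numpy 2.4.6, matplotlib 3.10.9 and scipy 1.17.1. Lower and higher refer to calls past the threshold.

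Named were the 5 highest and 5 lowest members by level, members called the same way in each clone, the 3 largest non-overlapping rises and falls per clone, the largest difference per pair of clones, MRPL12, the structural exceptions, and up to 2 rises and 2 falls per gene list. Members and lists were chosen with earlier results of these data known. In 25 alternatives the pseudocount, filter, scaling, model and libraries were varied. Replicate numbers were not used to pair wells, and calls given with all wells come from that fit. With the replicate number as a block, 18 of the 62 named values that had not passed were called. Promoter windows came from RefSeq (GRCh38.p14), with those on chromosome 8 left out.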

Additional observations from a re-analysis of the deposited data

Results flagged for a closer look

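By limma's test of the difference between clones, 12 to 25 members were called per pair. Given here are 5 members, which had the largest difference of a pair among those called without overlap of the libraries, or were called in opposite directions against Non-target in the clones of the pair. MRPL13 differed by −0.81 on the log2 scale between MAGI2-CKO and C9orf89-CKO and by 0.76 between MLPH-CKO and MAGI2-CKO. MRPL49 differed by −0.66 between MLPH-CKO and C9orf89-CKO and by −0.48 between MAGI2-CKO and C9orf89-CKO (adjusted p = 7.61e-05 and 0.00036 by limma). Against Non-target MRPL49 was at −0.25 in MAGI2-CKO (limma adjusted p = 0.0154), a call lost without Non-target replicate 2 (adjusted p = 0.0602). MRPL34 differed by −0.91 between RHBDD2-CKO and MAGI2-CKO and by −0.74 between RHBDD2-CKO and MLPH-CKO. MRPL43 differed by −0.50 between RHBDD2-CKO and C9orf89-CKO. MRPS27, which binds RNA in the small subunit, differed by −0.38 between MLPH-CKO and C9orf89-CKO (limma adjusted p = 0.000379), with 0.21 in C9orf89-CKO and −0.17 in MLPH-CKO against Non-target (adjusted p = 0.00995 and 0.0234). The MLPH-CKO call of MRPS27 was lost without Non-target replicate 3 and MLPH-CKO replicates 2 and 3 in turn (adjusted p = 0.0757 to 0.0952), with quantile normalization, the same summed FPKM and voom, and with only the 6 libraries compared (0.0647 to 0.0805). Each group is 1 clone, so a difference between guides and a difference between clones cannot be told apart.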

How the results depend on the processing

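Of 64 named values past the threshold, 38 stayed past it in each of 25 alternatives, 26 were lost in at least 1, and 0 changed sign. No filter ended 14 of these calls, quantile normalization 13, the same summed FPKM 12 and no trend 6. With only the 6 libraries compared 15 were lost, and without replicate 1 of every group 4. Among the members called lower, 12 of 18 in C9orf89-CKO, 10 of 19 in MAGI2-CKO, 10 of 16 in MLPH-CKO and 8 of 22 in RHBDD2-CKO were called in each of them. With few wells and a prior of 2.616 degrees of freedom, small changes could not be detected reliably, and genes of few fragments, such as MRPS24, could not be tested. Pseudocounts of 1 and 0.01, no filter, voom on recovered fragments and a fit without trend moved no count of all calls or of lower members by over 1.5 times. The few higher members went from 5 to 3 in MLPH-CKO with no filter and from 2 to 1 in RHBDD2-CKO with no filter or no trend. With only the 6 libraries compared, they were 2, 5, 2 and 1 in the 4 clones, and with 1 library left out 2 to 6, 4 to 7, 3 to 5 and 1 to 3.

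Wells that share a number need not share a batch, although 11 of 15 libraries correlated best with a library of their own number. The deviations of same-numbered wells from their group means had a median correlation of 0.212 for replicate 1 (lowest 0.128), 0.0383 for replicate 2 (lowest 0.00103) and 0.0795 for replicate 3 (lowest 0.0559, 10 pairs each), against −0.0887 for 60 pairs with different numbers. Every replicate 1 pair was thus at 0.128 or more, while pairs of replicates 2 and 3 went lower. The main fit did not pair wells by number. With the replicate number as a block, calls rose to 37 in C9orf89-CKO (31 lower), 36 in MLPH-CKO (30 lower) and 37 in RHBDD2-CKO (34 lower), and between clones to 24 (MAGI2-CKO and C9orf89-CKO), 21 (MLPH-CKO and C9orf89-CKO), 24 (RHBDD2-CKO and C9orf89-CKO) and 22 (MLPH-CKO and MAGI2-CKO). In MAGI2-CKO the block gave 26 lower. It also raised the calls over all genes, to 35.4%, 44.3%, 38.9% and 43.5% in the 4 clones (18.7%, 23.7%, 20.9% and 22.5% lower), from 26%, 36.1%, 30.1% and 34.1%. Without replicate 1 of every group the members called were 41 (34 lower), 39 (31 lower), 47 (44 lower) and 46 (43 lower) in the 4 clones, and in the pairs of clones, in the order used in the report, 28, 22, 32, 25 and 41 for the first 5. With the block, 31.5%, 22.5%, 37.7% and 29.4% of all genes were called in the 4 pairs just named. In RHBDD2-CKO quantile normalization and the same summed FPKM gave 15 calls each, 11 and 9 of them lower and 13 and 11 of them among the 24 of the all-well fit without rescaling. With only the 6 libraries compared, 6 calls were left between MLPH-CKO and C9orf89-CKO and 8 between MLPH-CKO and MAGI2-CKO. The cause was not tested.

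With 1 library left out at a time, C9orf89-CKO had 15 to 26 calls and RHBDD2-CKO 14 to 28 (all genes 20.3% to 26.99% and 26.4% to 34.9%). Lower members numbered 11 to 21 for MAGI2-CKO, 11 to 26 for MLPH-CKO and 13 to 27 for RHBDD2-CKO (all genes 15.5% to 19.5%, 12.2% to 16.1% and 12.8% to 17.1%). Between clones they ran from 7 to 14 (MLPH-CKO and C9orf89-CKO), 8 to 17 (RHBDD2-CKO and C9orf89-CKO) and 7 to 14 (MLPH-CKO and MAGI2-CKO), while 9.63% to 14.6%, 23.3% to 29.9% and 15.3% to 21.9% of all genes were called.

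Of 62 named values that had not passed, 29 passed in at least 1 alternative, 26 of them without replicate 1 of every group and 18 with the block, and 17 changed sign. With 1 library left out, the log2 fold change ran in C9orf89-CKO from −0.0224 to 0.135 for MRPL13, −0.222 to 0.0754 for MRPL23 and −0.0707 to 0.355 for MRPL38. In MLPH-CKO it ran from −0.0627 to 0.0484 for MRPL13, −0.177 to 0.0126 for MRPL41, −0.36 to 0.0313 for MRPL46, −0.106 to 0.0472 for MRPS30, −0.003 to 0.113 for MRPS18B and −0.471 to 0.0978 for MRPS36, and in RHBDD2-CKO from −0.027 to 0.0647 for MRPL49 and −0.0652 to 0.0016 for MRPS16. Without replicate 1 of every group it was −0.0603 for MRPL49 in RHBDD2-CKO, and in MLPH-CKO 0.0058 for MRPS30 and −0.031 for MRPS18B. Quantile normalization gave 0.0198 for MRPL13 in MLPH-CKO, 0.0869 for MRPS16 in RHBDD2-CKO and 0.0048 for MRPS18B in C9orf89-CKO, and voom gave 0.0262 for MRPL13 in MLPH-CKO. With the same summed FPKM, which raised the median of all genes in RHBDD2-CKO to 0.15, the values there were 0.0746 for MRPS17, 0.0699 for MRPL13, 0.115 for MRPS16, 0.0144 for MRPS6, 0.0647 for MRPS30 and 0.0044 for MRPS18A.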
